A study of Mus musculus with 3 samples.

Results

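The transcripts of 10 cytokine genes that T cells can secrete, Ifng, Tnf, Il2, Il10, Il21, Il17a, Il4, Csf1, Csf2 and Lta, were followed across the leukocytes of inflamed islets. They are 10 of the 32285 genes in the count table and were taken by name, as classical effector cytokines of T cells. CD45+ cells were sorted alive from the islets of female wild-type NOD mice, a strain that develops autoimmune diabetes spontaneously, at 15 to 16 weeks of age, with no treatment. Each of the 3 libraries held the islets of 2 or 3 mice pooled, so the library and not the mouse is the replicate, and the libraries came from 2 independent experiments whose assignment is not given, so no value within an experiment can be shown. All libraries belong to 1 group and there was no control group, so the comparisons lie between cell classes of the same libraries.

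The libraries held 5844, 9537 and 11566 cells with a median of 4230, 6415 and 5521 unique molecular identifiers (UMIs, each standing for 1 captured RNA molecule) per cell. Cells were assigned to classes by the raw UMIs of a few defining genes, none of them a cytokine. CD8+ T cells had Cd3e and at least 2 UMIs of Cd8a and Cd8b1 without Cd4 (3258 cells), and CD4+ T cells had Cd3e and Cd4 without Cd8a, Cd8b1 or Foxp3 (5858 cells). Regulatory T cells (Treg) had Cd3e and Foxp3 (1671 cells), gamma-delta T cells had Cd3e and at least 2 UMIs of Trdc without Cd4 or Cd8b1 (508 cells), and B cells had at least 2 UMIs of Cd79a without Cd3e (4936 cells). NK cells (245) and myeloid cells (161) were set beside them as reference classes. The class labels were checked against marker lists that mostly had not entered the gates. The T-cell list holds no gate gene. The CD8 list includes Cd8a and Cd8b1, the Treg list Foxp3, the gamma-delta list Trdc and the B-cell list Cd79a. For these lists part of the contrast was set by the gates, and no sum without the gate genes was taken. The summed T-cell markers lay at 2936 to 5195 CPM (UMIs per 1000000 UMIs of a class in a library) in the T-cell classes and 200.3 to 297 in B cells. The gamma-delta list lay at 1628 to 1909 in gamma-delta T cells, 62.4 to 114 in CD8+ T cells and 17.6 to 27.1 in CD4+ T cells. The CD8+ gate did not leave out cells with Trdc. In NK cells the T-cell list lay at 1210 to 1551 and the gamma-delta list at 240 to 304. Whether the NK class holds T cells without a captured UMI of Cd3e was not tested. The Treg list lay at 2201 to 2644 in Treg and 767 to 1006 in CD4+ T cells, and the CD8 list at 5741 to 6479 in CD8+ T cells but at 8719.9 to 11064 in NK cells and 2892 to 4970 in gamma-delta T cells, so it did not single out the CD8+ class. B-cell transcripts were nevertheless present in every T-cell class, with Cd79a in 19.6, 33.0 and 25.4% of Treg and 7.20 to 16.5% of CD8+ and CD4+ T cells, and the B-cell markers summed to 293 to 2511 CPM in gamma-delta T cells and 5007 to 7115 in B cells. Between libraries 59 cell barcodes were shared by a pair of libraries, and 66 class cells carried one.

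Interferon-gamma, encoded by Ifng, is the signature cytokine of type 1 immunity and acts on macrophages and on the islet cells themselves, while tumour necrosis factor (Tnf) and lymphotoxin alpha (Lta) are related trimeric ligands that share receptors. Il2 feeds T-cell growth and Treg survival, Il21 is the helper cytokine of follicular and related CD4+ T cells, Il17a marks type 17 and innate-like T cells, Il4 marks type 2 helpers, and Il10 restrains inflammation. Csf1 and Csf2 encode M-CSF and GM-CSF, which act on myeloid cells. Resting T cells carry little of these RNAs, and transcription starts after antigen-receptor signals through factors such as NFAT, AP-1 and the T-box proteins.

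The positions of the genes are given in the GRCm38 build. Tnf (chr17:35199381-35202007) and Lta (chr17:35203165-35205351) are neighbours on the minus strand, Il2 (chr3:37120523-37125959) and Il21 (chr3:37222759-37232636) lie on the minus strand of chromosome 3, and Il4 (chr11:53602982-53618669) and Csf2 (chr11:54247271-54249667) lie on the minus strand of chromosome 11. Ifng lies at chr10:118441046-118445892, Il10 at chr1:131019845-131024974 and Il17a at chr1:20730905-20734496, all on the plus strand, and Csf1 at chr3:107741048-107760469 on the minus strand. Il2 overlaps Adad1, Il21 overlaps Gm12534 and Csf2 overlaps Gm12223 on the opposite strand, so these 3 depend on strand-aware counting. RefSeq promoters of the GRCm38.p6 build, from 250 bases before to 50 bases after a transcript's start, were matched for 9 of the 10 genes. Of these, 4 are shown 5′ to 3′ on the strand of the gene, those of Il21 and Il17a, whose RNA lay mostly in 1 class each, and of Ifng and Tnf, which were spread over several: Ifng (chr10:118440796-118441095, plus), Il21 (chr3:37232587-37232886, minus), Il17a (chr1:20730655-20730954, plus) and Tnf (chr17:35201958-35202257, minus). Capitals mark a TATA box (TATAAA), an NFAT core (TGGAAA), an AP-1 site (TGANTCA), a CRE motif (TGACGT) or a T-box motif (AGGTGT), each searched on both strands.
Ifng: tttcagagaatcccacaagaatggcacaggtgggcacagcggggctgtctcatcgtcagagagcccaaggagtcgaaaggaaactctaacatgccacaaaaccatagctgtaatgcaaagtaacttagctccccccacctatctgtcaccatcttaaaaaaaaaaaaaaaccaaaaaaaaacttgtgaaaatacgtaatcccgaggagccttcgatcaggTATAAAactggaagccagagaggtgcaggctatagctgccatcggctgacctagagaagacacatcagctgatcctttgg
Il21: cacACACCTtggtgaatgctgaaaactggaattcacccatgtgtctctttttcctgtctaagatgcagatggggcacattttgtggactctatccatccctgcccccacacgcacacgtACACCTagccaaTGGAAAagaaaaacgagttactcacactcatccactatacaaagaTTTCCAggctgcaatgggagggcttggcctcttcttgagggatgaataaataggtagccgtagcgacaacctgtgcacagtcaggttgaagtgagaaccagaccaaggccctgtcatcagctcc
Il17a: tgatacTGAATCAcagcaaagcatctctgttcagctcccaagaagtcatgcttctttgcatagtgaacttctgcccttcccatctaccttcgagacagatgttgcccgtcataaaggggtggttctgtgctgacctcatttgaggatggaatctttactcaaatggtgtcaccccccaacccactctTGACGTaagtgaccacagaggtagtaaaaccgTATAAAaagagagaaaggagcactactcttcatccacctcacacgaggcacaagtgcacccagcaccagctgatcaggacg
Tnf: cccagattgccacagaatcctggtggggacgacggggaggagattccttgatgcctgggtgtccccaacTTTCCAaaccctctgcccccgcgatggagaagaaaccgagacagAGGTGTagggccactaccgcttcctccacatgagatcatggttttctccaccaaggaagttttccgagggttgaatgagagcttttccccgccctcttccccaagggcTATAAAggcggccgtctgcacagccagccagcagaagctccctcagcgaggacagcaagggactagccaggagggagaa
Ifng, Il17a and Tnf had a TATA box at -30, -31 and -29 from the start, a motif present in 13.6% of 32851 promoters of this length. Il21 had none, but held a pair of NFAT cores at -119 and -74 and a pair of T-box motifs at -247 and -131, where at least 1 match was present in 21.4% and 13.7% of all promoters. Il17a held the only AP-1 match among the 10 member sequences, at -244, and a CRE motif at -63, present in 7.81% and 7.51% of promoters, and Tnf held an NFAT core at -181 and a T-box motif at -137. These are matches of letters in a short window and show neither binding nor its absence.

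All levels are given in CPM. They are not divided by transcript length, because each molecule is counted once by its 3′ end, so they were compared between classes for 1 gene and not between genes. Fewer expressing cells and less RNA per cell cannot be told apart in such a sum, so the share of cells with a UMI and the UMIs per positive cell are given beside it. That share depends on depth, and the median UMIs per cell in replicates 1, 2 and 3 were 5397, 7665 and 6516 in CD8+ T cells, 4549, 6423 and 5520 in CD4+ T cells, 4682, 10106 and 9166.5 in Treg, 3941, 6661.5 and 5897 in gamma-delta T cells and 4309, 6784 and 5899 in B cells. Shares were therefore also taken after thinning each cell to 2000 UMIs.

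**Figure D1:**
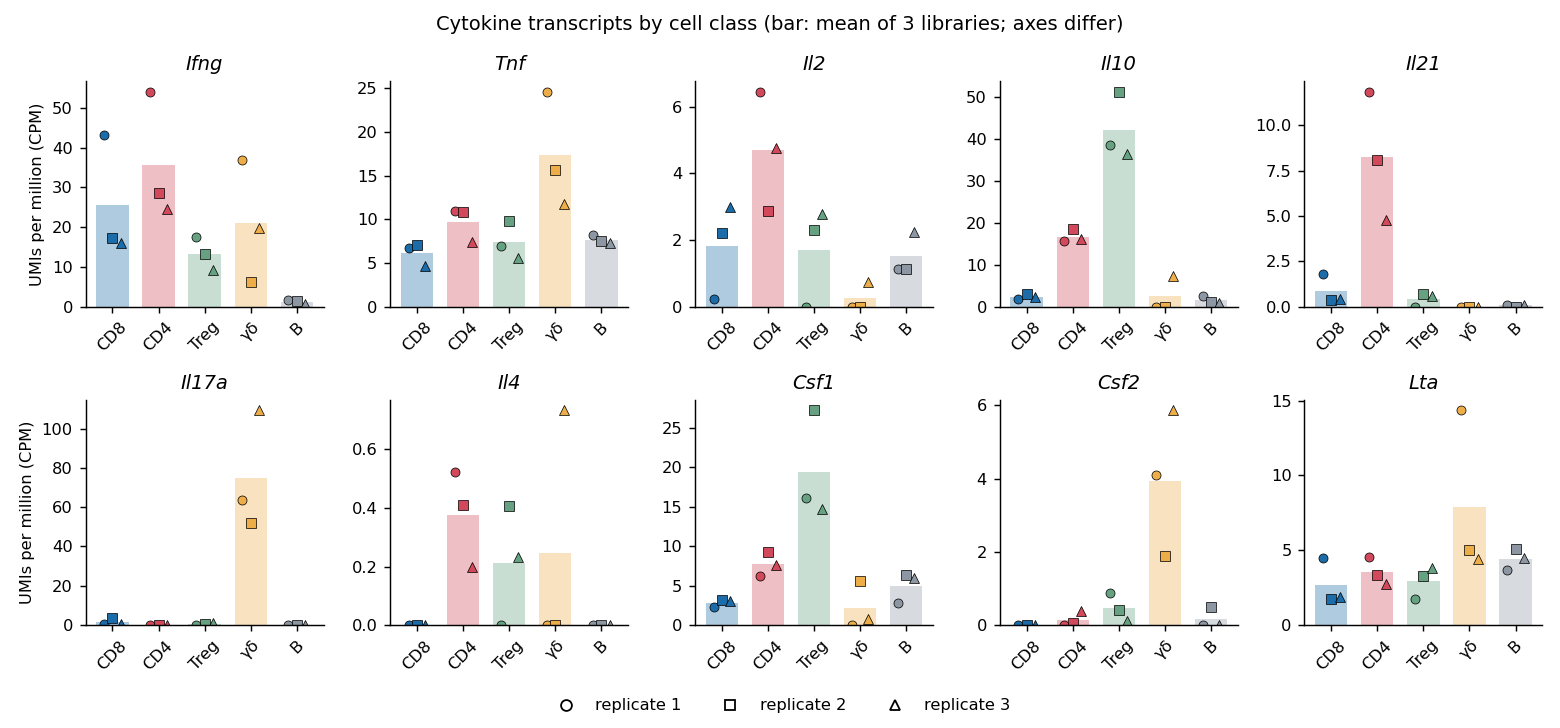
Level of each cytokine gene in CPM in 5 cell classes, on linear axes from 0 that differ between genes. Each point is 1 library and each bar the mean of 3 libraries. Il17a stands out in gamma-delta T cells (51.9 to 109), Il10 in Treg (36.4 to 51.4) and Il21 in CD4+ T cells (4.75 to 11.9), while for Ifng neighbouring T-cell classes overlap and Treg (9.16 to 17.4) lie below CD4+ T cells (24.6 to 54.0).

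Most cells carried none of the 10 transcripts. At least 1 was found in 19.4, 14.8 and 12.8% of CD8+ T cells of replicates 1, 2 and 3, in 26.9, 22.7 and 19.8% of CD4+ T cells, in 28.8, 39.3 and 30.5% of Treg and in 17.8, 23.1 and 20.6% of gamma-delta T cells. B cells, mostly through Tnf, Csf1 and Lta, gave 7.98, 12.3 and 12.1%. After thinning the shares were 4.35 to 7.77% in CD8+, 8.18 to 14.0% in CD4+, 11.8 to 15.5% in Treg, 10.2 to 12.6% in gamma-delta T cells and 3.25 to 4.44% in B cells. CD8+ T and B cells overlapped in range at equal depth, although CD8+ T cells had the higher share in each library (7.77, 4.35 and 4.53% against 3.78, 3.25 and 4.44%).

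Ifng was measured in CD4+ T cells at 54.0, 28.5 and 24.6 CPM, in CD8+ T cells at 43.1, 17.1 and 16.1, in gamma-delta T cells at 36.9, 6.25 and 19.8, and in Treg at 17.4, 13.3 and 9.16. The order of the means was CD4+ (35.7 ± 15.99, SD, n = 3), CD8+ (25.4 ± 15.3), gamma-delta (20.99 ± 15.4) and Treg (13.3 ± 4.11), and each neighbouring pair in that order overlapped in range. Replicate 1 was the highest in all 4 T-cell classes. B cells lay at 1.70, 1.49 and 0.613 and did not overlap any T-cell class, and NK cells averaged 49.6 ± 14.4. A UMI of Ifng was found in 8.51 ± 2.95% of CD4+ and 8.12 ± 3.56% of CD8+ T cells, against 0.409 ± 0.0362% of B cells, and thinned to equal depth in 4.10 ± 2.00%, 3.49 ± 2.07% and 0.180 ± 0.0375%. The transcript was unevenly spread over the positive cells. In CD4+ T cells 54.3% of the 442 positive cells held a single UMI, whereas 66 cells with 5 or more held 53.3% of all Ifng UMIs of the class, up to 59 in 1 cell. In CD8+ T cells 27 of 233 positive cells held 45.1% of the UMIs. Leaving out cells in more than 1 class, CD4+ T cells held 42.2% of the 3061 Ifng UMIs, cells of no class 27.0% and CD8+ T cells 18.1%. Of the 337 positive cells of no class, 132 had Cd8a or Cd8b1 and 92 had Cd4. What they would add to either class was not tested.

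Tnf was broader than Ifng, and B and myeloid cells carried it too. CD4+ T cells held 10.98, 10.8 and 7.43 CPM, CD8+ T cells 6.73, 7.02 and 4.66, Treg 6.96, 9.76 and 5.57, and B cells 8.24, 7.46 and 7.25. The B-cell range overlapped the CD4+ range, although CD4+ T cells had the higher value in each library. Gamma-delta T cells held 24.6, 15.6 and 11.7, above CD4+ T cells in range. Myeloid cells, by far the strongest source, averaged 396 ± 221 with a UMI in 41.3 ± 11.3% of cells and 9.33 UMIs per positive cell, against 1.38 to 1.71 in the T-cell classes. The 161 myeloid cells accounted for 31.3% of all 2088 Tnf UMIs in the libraries and the CD4+ T cells for 19.0%. Lta, its neighbour on chromosome 17, lay between 1.74 and 5.12 in CD8+, CD4+, Treg and B cells and reached 14.4, 5 and 4.40 in gamma-delta T cells. The value of 14.4 in replicate 1 rested on 7 UMIs in 2 of 101 cells, 6 of them in 1 cell. All neighbouring classes overlapped for Lta, and B cells held its largest share, 26.5% of 584 UMIs.

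Il10, the anti-inflammatory cytokine, had the clearest order among the classes. Treg held 38.7, 51.4 and 36.4 CPM, CD4+ T cells 15.7, 18.4 and 16.1, CD8+ T cells 1.80, 2.93 and 2.20, gamma-delta T cells 0, 0 and 7.34, and B cells 2.65, 0.995 and 0.817. The Treg and CD4+ ranges did not overlap each other or those of the remaining 3 classes. A UMI was found in 14.4 ± 1.44% of Treg and 4.52 ± 0.526% of CD4+ T cells, against 0.673 ± 0.326% of B cells. Thinned to equal depth the shares were 7.30 ± 1.62%, 2.13 ± 0.367% and 0.143 ± 0.0834%, so the order held at equal depth. Positive Treg carried 3.31 UMIs on average and up to 64. The myeloid cells also held Il10, at 31.3 ± 6.54 (24.4 to 37.3), above the CD4+ range and overlapping Treg. Because the CD4+ class is larger, it supplied 35.6% of the 2049 Il10 UMIs and Treg 37.2%.

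Il21 and Il2, the helper and growth cytokines, were low throughout, and both had their highest mean in CD4+ T cells. Il21 lay at 11.9, 8.11 and 4.75 CPM in CD4+ T cells, at 1.80, 0.355 and 0.440 in CD8+ T cells and at 0, 0.678 and 0.580 in Treg. It was at 0 in gamma-delta T cells in all 3 libraries, where a count of 0 in 508 cells allows a share of cells with a UMI of up to 0.591%, which covers counting error and says nothing of cells that express the gene without a captured UMI. The CD4+ class supplied 69.6% of the 434 Il21 UMIs, and cells in no class 23.7%. A UMI was found in 3.13 ± 1.21% of CD4+ T cells and 0.0434 ± 0.0389% of B cells, and in 1.30 ± 0.618% and 0.0251 ± 0.0434% after thinning. Il2 lay at 6.45, 2.88 and 4.75 in CD4+, at 0.224, 2.22 and 2.99 in CD8+, at 0, 2.30 and 2.78 in Treg and at 1.14, 1.14 and 2.25 in B cells. CD4+ T cells supplied 36.5% of the 498 Il2 UMIs, cells in no class 32.7%, CD8+ T cells 11.4% and B cells 10.04%. Only the CD4+ class lay above the B-cell range in every library for Il2. Nearly every positive CD8+ T cell held a single UMI of it (98.3% of 59 cells). The share with a UMI was 1.49 ± 1.16% in CD8+ T cells and 0.941 ± 0.667% in B cells. The pooled ratio of CD8+ T to B cells was 1.53, with a counting interval of 1.03 to 2.27, and the levels of the libraries overlapped. Whether these UMIs are background RNA was not tested.

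Il17a was concentrated in gamma-delta T cells, at 63.6, 51.9 and 109 CPM, against 0.174, 0.0587 and 0.0495 in CD4+ T cells and 0 in B, NK and myeloid cells. CD8+ T cells held 0.673, 3.55 and 0.440 and Treg 0, 0.678 and 1.16. In the gamma-delta class 42 of 508 cells were positive, 8, 18 and 16 in the 3 libraries, which is 8.20 ± 0.393% of cells (5.49 ± 1.24% thinned). Of its 263 UMIs, 79.8% lay in 12 cells, and in replicate 3 a single cell held 95. Leaving out cells that fell in more than 1 class, the gamma-delta class supplied 253 (66.9%) of the 378 Il17a UMIs of the libraries. The CD8+ level rested on 5 cells with 48 UMIs, of which 37 were in 1 cell of replicate 2, and the CD4+ level on 3 cells with 1 UMI each.

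Csf1, like Il10, was highest in Treg and next in CD4+ T cells. Treg held 16.1, 27.2 and 14.7 CPM, CD4+ T cells 6.28, 9.22 and 7.63, CD8+ T cells 2.24, 3.20 and 3.08, gamma-delta T cells 0, 5.63 and 0.734, and B cells 2.75, 6.33 and 5.92. Treg lay above the other 4 of these classes in range, and CD4+ T cells overlapped B cells. Myeloid cells, at 4.39, 23.1 and 13.7, overlapped Treg. A UMI was found in 12.3 ± 4.47% of Treg and 3.08 ± 1.71% of B cells, and in 4.17 ± 1.15% and 1.14 ± 0.393% after thinning. The receptor gene Csf1r lay at 231, 446 and 437 in myeloid cells and at 8.67 or less in the T-cell classes, and Csf2rb, a receptor chain for GM-CSF, at 244, 549 and 381 in myeloid cells.

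Csf2 and Il4 were almost absent from the 5 classes. The 508 gamma-delta T cells held 13 UMIs of Csf2 in 7 cells, 7 of them in 1 cell, which is 4.10, 1.88 and 5.87 CPM. CD4+ T cells held 9 UMIs, B cells 7, Treg 6 and CD8+ T cells 0. Of the 257 Csf2 UMIs in the libraries, 84.4% lay outside all classes, in 27 cells with up to 36 UMIs in 1 cell. Of these, 17 had no UMI of Cd3e, Cd3d, Cd3g, Trdc, Cd79a or Ncr1, 8 had Cd3d or Cd3g, and 0 reached 5 UMIs of Lyz2 and C1q genes. Il4, the type 2 cytokine, had 36 UMIs in all, of which 14 were in 11 CD4+ T cells, 5 in Treg, 1 in a gamma-delta T cell and 16 (44.4%) in cells of no class. It was at 0 in 3258 CD8+ and 4936 B cells, which allows shares of cells with a UMI of up to 0.0921% and 0.0608% by counting error alone. The remaining type 2 genes Il5 and Il13 reached at most 5.65 and 1.05 CPM in any T-cell class of a library.

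**Figure D2:**
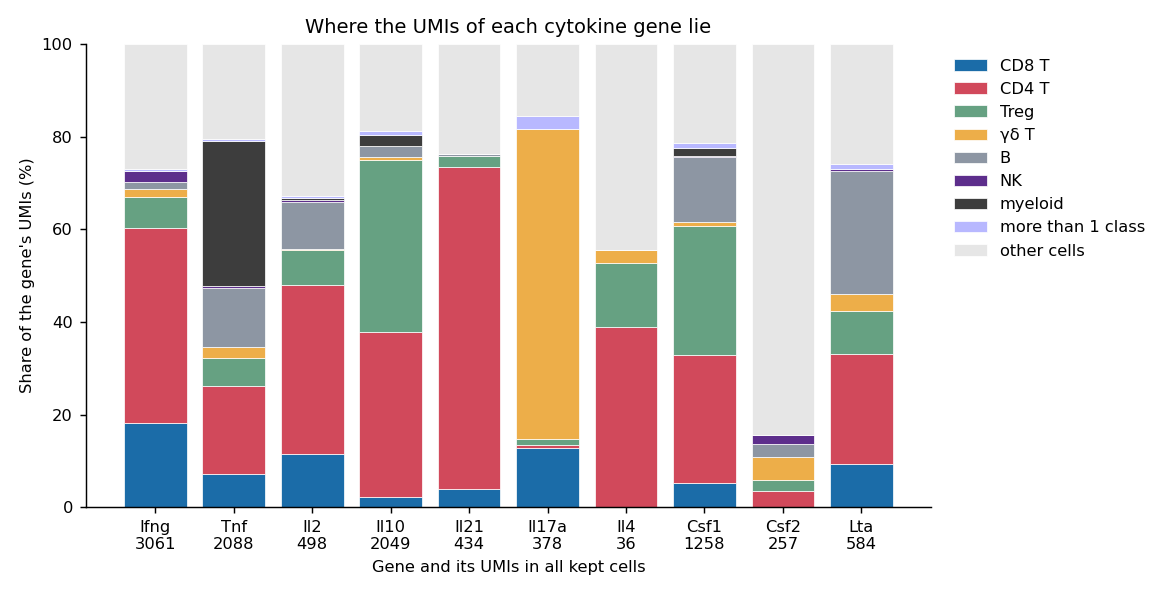
Share of all UMIs of each cytokine gene (percent, stacked to 100) that lay in the 5 cell classes, in NK and myeloid cells and in cells of no class, over the 3 libraries together. CD4+ T cells hold 69.6% of Il21 and 42.2% of Ifng, gamma-delta T cells 66.9% of Il17a, myeloid cells 31.3% of Tnf, and cells of no class 84.4% of Csf2.

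CD8+ were compared with CD4+ T cells to ask which cytokines separate the main lineages, in a fit of all 15 class sums across 12110 genes with the library as a block (edgeR's quasi-likelihood test, Benjamini-Hochberg adjusted p, threshold 0.05). Of the 10 genes 9 passed the count filter, all but Il4, and 5 passed the test, 1 higher and 4 lower in CD8+ T cells, beside 13.3% of all genes called (6.09% higher, 7.23% lower). Of the genes called, Il21 reached the filter through the CD4+ sums, where it is high, so the filter favoured it in this count. With no count filter Il21 kept its call. The median log2 fold change of the 9 was -1.05, and that of all genes 0.02. Il10 was lower by a log2 fold change of -2.69 (SE 0.33, adjusted p = 5.6e-05), Il21 by -3.37 (SE 0.42, adjusted p = 0.000122) and Csf1 by -1.33 (SE 0.26, adjusted p = 0.00252), in 3 of 3 libraries each. Ifng, at -0.46 (SE 0.18, adjusted p = 0.116), did not pass, although CD8+ T cells had the lower value in 3 of 3 libraries. Tnf was lower by -0.55 (SE 0.16, adjusted p = 0.0281) and Il17a higher by 4.47 (SE 1.02, adjusted p = 0.00936), with no overlap of the 3 libraries for either. The Tnf call was lost without replicate 1, 2 or 3 (adjusted p = 0.0568, 0.193 and 0.236). The Il17a call was lost without replicate 2 (adjusted p = 0.205), the library with the cell of 37 UMIs, and with members capped at 1 UMI per cell the log2 fold change was 1.29 (adjusted p = 0.393).

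Treg were compared with CD4+ T cells to separate cells with a captured Foxp3 UMI from cells without one. The gates differed in more than Foxp3, because the Treg gate did not ask for Cd4 or leave out Cd8a and Cd8b1. A cell that expresses Foxp3 without a captured UMI can fall in the CD4+ class, where the Treg list lay at 767 to 1006 CPM. What such cells add to the CD4+ levels was not tested. In this comparison 4 of 9 passed, 2 in each direction, beside 7.59% of all genes (4.14% higher, 3.45% lower). The count includes Il21, which the filter favoured through the CD4+ sums and which kept its call with no count filter. The median of the 9 was -0.11 with that of all genes at 0.00. Il10 (log2 fold change 1.24, SE 0.24, adjusted p = 0.00506) and Csf1 (1.20, SE 0.21, adjusted p = 0.00261) were higher in Treg. Ifng (-1.43, SE 0.20, adjusted p = 0.000415) and Il21 (-3.74, SE 0.47, adjusted p = 0.000298) were lower in Treg, again in 3 of 3 libraries for each of the 4 genes. Il2 lay at -1.24 (SE 0.51, adjusted p = 0.178) and did not pass, while Il2ra, the high-affinity receptor chain and a Treg marker, was higher by 2.05. Without replicate 2 the Il10 and Csf1 calls were lost (adjusted p = 0.0844 and 0.118), and with DESeq2 that of Il10 (adjusted p = 0.394). B-cell transcripts moved with this contrast, at 824 to 1647 CPM in Treg and 621 to 886 in CD4+ T cells. With cells carrying markers of another class left out, Ifng, Il10, Il21 and Csf1 were again the members called.

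Gamma-delta T cells differed from CD4+ T cells in 7 of 9 genes, 3 higher and 4 lower, beside 14.5% of all genes called (7.44% higher, 7.04% lower). Their median was -0.92, and that of all genes -0.05. Il17a was higher by a log2 fold change of 9.86 (SE 0.75, adjusted p = 9e-07), and the ratio of the pooled levels was 1091, with a counting interval of 369 to 5326 because only 3 UMIs stood on the CD4+ side. Csf2 (4.17, SE 1.11, adjusted p = 0.0216) and Tnf (0.71, SE 0.21, adjusted p = 0.0348) were also higher. In the fit of the classes, Il17a and Csf2 reached the count filter through the gamma-delta sums and Il21 through the CD4+ sums. The filter thus favoured these members in the class where they are high, and the count of 7 of 9 includes them. With no count filter each of them kept its call in this comparison. Il21, at 0 in every gamma-delta sum, was at least 8.09-fold lower against a floor of 3 counts over the class (3.90-fold without replicate 2). Il10 was lower by -2.54 (SE 0.61, adjusted p = 0.00937), Csf1 by -1.54 (SE 0.48, adjusted p = 0.0442) and Ifng by -0.92 (SE 0.29, adjusted p = 0.0412), the last with overlapping ranges. Ifng and Tnf lost their calls without any 1 library (adjusted p = 0.0634, 0.311 and 0.0553 for Ifng and 0.143, 0.146 and 0.152 for Tnf without replicate 1, 2 and 3). Csf1 lost its call without replicate 1 or 3 (0.108 and 0.27), Csf2 without 2 or 3 (0.0569 and 0.0977) and Il10 without 2 (0.155), while Il2 gained one without 1 (0.0161). B-cell markers were spread widely in the gamma-delta class, from 293 to 2511 CPM, and with mixed-marker cells left out Il17a, Il21, Il10 and Tnf kept a call.

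**Figure D3:**
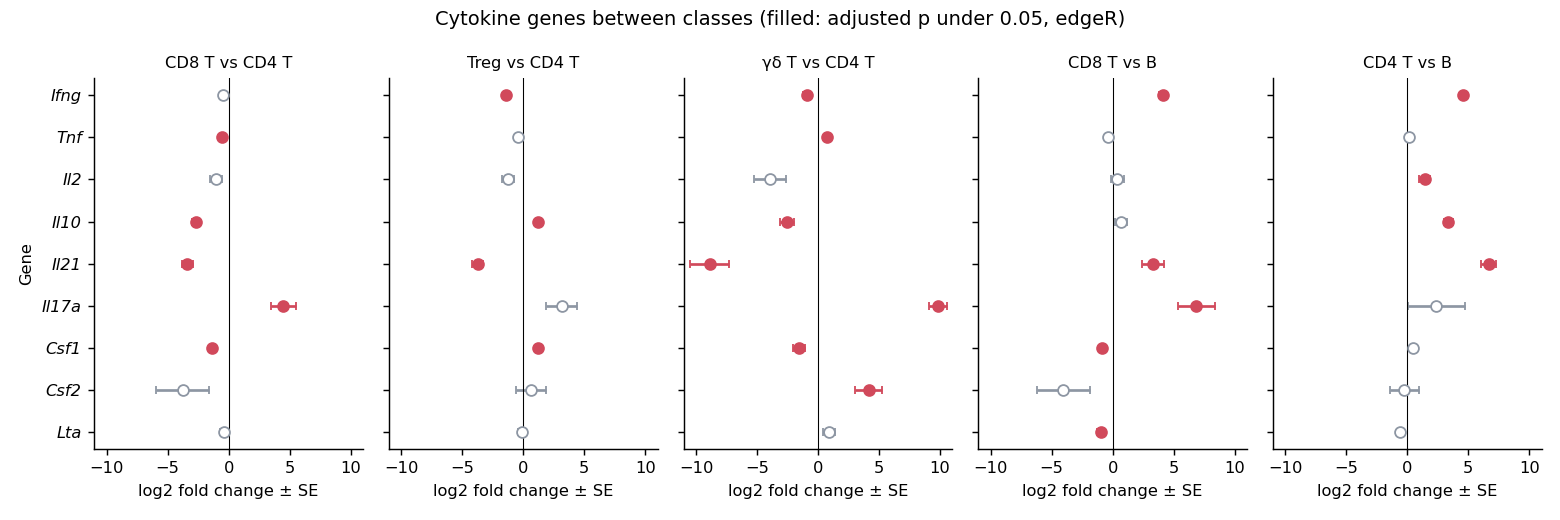
Fitted log2 fold change of each cytokine gene (points, with bars of 1 SE) in CD8+, Treg and gamma-delta T cells against CD4+ T cells and in CD8+ and CD4+ T cells against B cells; filled points passed adjusted p under 0.05 and open points did not. Il17a is the highest point of gamma-delta T cells (9.86), and Il10 lies on opposite sides of 0 in Treg (1.24) and CD8+ T cells (-2.69); a fold of a gene at 0 in 1 class, such as Il21 in gamma-delta T cells, is set by the fit and is no measured size.

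The comparison with B cells set the T-cell levels against a lineage in which Ifng, Il21 and Il17a were at or near 0 but Tnf, Csf1 and Lta were present. CD4+ T cells were higher for 4 of 9 genes and lower for 0, beside 55.5% of all genes called (26.8% higher, 28.6% lower). These were Ifng (log2 fold change 4.57, SE 0.26, adjusted p = 1.1e-09), Il10 (3.36, SE 0.35, adjusted p = 8e-07), Il21 (6.66, SE 0.59, adjusted p = 4.8e-07) and Il2 (1.42, SE 0.47, adjusted p = 0.0188). The filter favoured Il21 here too, through the CD4+ sums, and Il21 kept its call with no count filter. Tnf (0.17, SE 0.15, adjusted p = 0.358), Csf1 (0.47, SE 0.23, adjusted p = 0.0937) and Lta (-0.56, SE 0.30, adjusted p = 0.127) did not pass. The pooled Il21 ratio was 121 with a counting interval of 33.2 to 1004, since B cells held 2 UMIs. CD8+ T cells passed for 5 of 9, 3 higher and 2 lower, beside 53.1% of all genes (26.7% higher, 26.4% lower). Ifng was higher in CD8+ T cells (4.11, SE 0.27, adjusted p = 5.7e-09), as was Il21 (3.28, SE 0.89, adjusted p = 0.00717), whose pooled ratio was 10.8 with a counting interval of 2.57 to 96.4. The CD8+ level of Il21 rested on 17 UMIs in 15 cells, and its call was lost in cells of 2000 to 8000 UMIs (adjusted p = 0.183). Il17a, at 0 in B cells, was at least 20.3-fold higher (adjusted p = 0.00196), a bound that fell to 3.43-fold without replicate 2, which held 40 of the 48 UMIs. Its call was lost with the cell filter of the study (adjusted p = 0.134) and in cells of 2000 to 8000 UMIs (adjusted p = 0.162). Csf1 (-0.86, SE 0.27, adjusted p = 0.0156) and Lta (-0.96, SE 0.33, adjusted p = 0.0246) were lower in CD8+ T cells, each with overlapping ranges. Without replicate 2 or 3 the Il2 call of CD4+ T cells (adjusted p = 0.0579 and 0.0793) and the Csf1 (0.122 and 0.0656) and Lta (0.334 and 0.208) calls of CD8+ T cells were lost.

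The receptors of these cytokines, 20 genes of which 18 were tested, were read in the same fit. In CD8+ against CD4+ T cells 3 were higher and 2 lower, beside 13.3% of all genes called, and without replicate 1, 2 or 3 the count of 5 was 8, 2 and 1: Il2rb, the shared chain of the IL-2 and IL-15 receptors (log2 fold change 0.89), and the TNF receptor Tnfrsf1a (0.82) were higher, and Csf2ra (-0.92) and Ifngr2 (-0.50) were lower. Treg were higher than CD4+ T cells for 5 and lower for 1, beside 7.59% of all genes (12, 1 and 2 called without replicate 1, 2 or 3), with Il2ra at 64.8, 36.3 and 36.9 CPM against 21.1, 5.87 and 7.82. Gamma-delta T cells were higher for 7 and lower for 1, beside 14.5% of all genes (5 called without replicate 2), with Il2rb (2.01) and Il2ra (2.07) above and Tnfrsf14 (-1.67), a receptor of lymphotoxin and LIGHT, below. The medians of the receptors were 0.02, 0.39 and -0.11 in these 3 comparisons, against 0.02, 0.00 and -0.05 over all genes. Ifngr1, the ligand-binding chain for interferon-gamma, lay at 553, 928 and 989 in CD8+ T cells and at 150.1, 121 and 118 in B cells, whereas Ifngr2, its signalling partner, lay at 24.2, 55.2 and 47.6 in CD8+ T cells and 86.4, 130.4 and 111 in B cells, so the chains had opposite orders in these classes.

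Other T-cell cytokines were 25 genes, of which 20 were tested, and the same shares of all genes stand beside their counts. CD8+ T cells were higher than CD4+ T cells for 3, among them the chemokine Xcl1 (log2 fold change 3.23), and lower for 6, among them the CD40 ligand Cd40lg (-4.45), the CD30 ligand Tnfsf8 (-3.19) and Lif (-2.92). Treg were higher for 1 and lower for 7, and without replicate 2 the count of 8 was 4; the lower ones included Ccl3 (-3.16), Ccl4 (-1.93), Cd40lg (-1.93) and the RANK ligand Tnfsf11 (-2.0). Gamma-delta T cells were higher for 5 and lower for 3, led by Il17f (6.35), the partner of Il17a, at 16.4, 59.4 and 30.1 CPM against 0.174, 0.117 and 0.842. Among 29 regulators of cytokine transcription, 4 were higher and 7 lower in CD8+ T cells, beside 13.3% of all genes called. Eomes (1.99) was above and Maf (-2.92), an activator of Il10 and Il21, below, and 6 or 7 regulators were called without replicate 2 or 3. Treg were higher for 8 and lower for 2, beside 7.59% of all genes (5 and 3 called without replicate 2 and 3). Gamma-delta T cells were higher for 10 and lower for 7, beside 14.5% of all genes. The 3 comparisons share the CD4+ sums.

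The study asked about PD1+ T cells, so the CD4+ and CD8+ classes were each split by whether a cell held a UMI of Pdcd1, the gene for PD1. Positive cells were the deeper ones, with a median of 4720, 7330.5 and 6459.5 UMIs against 4519, 6133.5 and 5228 in CD4+ T cells, and 5895.5, 8834 and 7121.5 against 4932, 7335.5 and 6247.5 in CD8+ T cells, so the levels in CPM and not the shares of cells were tested. In CD4+ T cells (2003 Pdcd1+ and 3855 Pdcd1- cells) 3 of 7 tested genes were higher in the Pdcd1+ cells and 0 lower, beside 14.6% of 10960 genes called (7.35% higher, 7.21% lower). The median of the 7 was 0.83, and that of all genes -0.01. Csf1 lay at 11.5, 15.99 and 12.5 CPM in Pdcd1+ and 3.28, 4.70 and 4.26 in Pdcd1- cells, a log2 fold change of 1.49 (SE 0.17, adjusted p = 0.0017). Tnf lay at 16.3, 15.4 and 9.72 against 7.93, 7.74 and 5.85 (0.72, SE 0.15, adjusted p = 0.019). For neither gene did the Pdcd1+ and Pdcd1- values overlap. Ifng lay at 68.3, 38.3 and 28.7 against 46.0, 22.0 and 21.8, higher in 3 of 3 libraries with overlapping ranges (0.42, SE 0.10, adjusted p = 0.0291). Il21 (1.06, SE 0.31, adjusted p = 0.0573), Lta (0.83, SE 0.26, adjusted p = 0.0758) and Il10 (1.04, SE 0.35, adjusted p = 0.093) did not pass, and Il10 was lower in Pdcd1+ cells of replicate 1. Il2, at -0.64 (SE 0.25, adjusted p = 0.14), was the single tested gene below 0, and lower in 3 of 3 libraries.

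Csf1 kept its call without each library in turn. Without replicate 2, Ifng and Tnf did not pass (adjusted p = 0.237 and 0.168), and without replicate 3 Tnf did not (0.0577). Il10, Il21 and Lta passed without replicate 1 (0.000202, 0.0128 and 0.0381), and Il21 without replicate 3 (0.0101). With DESeq2 in place of edgeR 1 gene passed, Csf1, and with members capped at 1 UMI per cell 1, Ifng (adjusted p = 0.0634 for Csf1).

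In CD8+ T cells (1101 Pdcd1+ and 2157 Pdcd1- cells) 1 of 5 tested genes, Il10, was higher in the Pdcd1+ cells, beside 13.6% of 9812 genes (6.71% higher, 6.91% lower). The median of the 5 was 0.45, and that of all genes 0.00. Il10 lay at 2.73, 4.41 and 4.77 CPM against 0.886, 2.16 and 0.697 (log2 fold change 1.51, SE 0.41, adjusted p = 0.0389). It reached the count filter through the Pdcd1+ sums, where it is high, so the filter favoured it in this count. With no count filter Il10 kept its call (adjusted p = 0.00936). It rested on 27 positive cells, of which 70.4% were Pdcd1+ in a class that was 33.8% Pdcd1+, and without replicate 2 or 3 it no longer reached the count filter, with 0 members called; with DESeq2 its adjusted p was 0.318. Ifng lay at 43.7, 19.98 and 21.7 against 42.5, 15.7 and 12.8 (0.23, SE 0.14, adjusted p = 0.361), so no difference in its level was detectable. The shares of cells gave another picture, with Ifng in 12.4% of Pdcd1+ and 5.86% of Pdcd1- CD8+ T cells, while the positive Pdcd1+ cells held fewer UMIs each, 2.53, 1.79 and 1.82 against 2.91, 3.52 and 2.56. Tnf (0.45, SE 0.28, adjusted p = 0.345), Csf1 (0.82, SE 0.34, adjusted p = 0.153) and Il2 (0.24, SE 0.39, adjusted p = 0.751) did not pass. The change with Pdcd1 was then tested between CD4+ and CD8+ T cells in 1 fit. No gene of 7 passed, nor any of 10975 (0% called by edgeR, with 767 genes and 0 of the 7 at an unadjusted p under 0.05, DESeq2 not run), with the difference for Csf1 at 0.70 (SE 0.35, adjusted p = 0.746) and for Ifng at 0.20 (SE 0.18, adjusted p = 0.929). Without replicate 1, 2 or 3 the genes called were 148, 1 and 0, with 0 members among them.

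**Figure D4:**
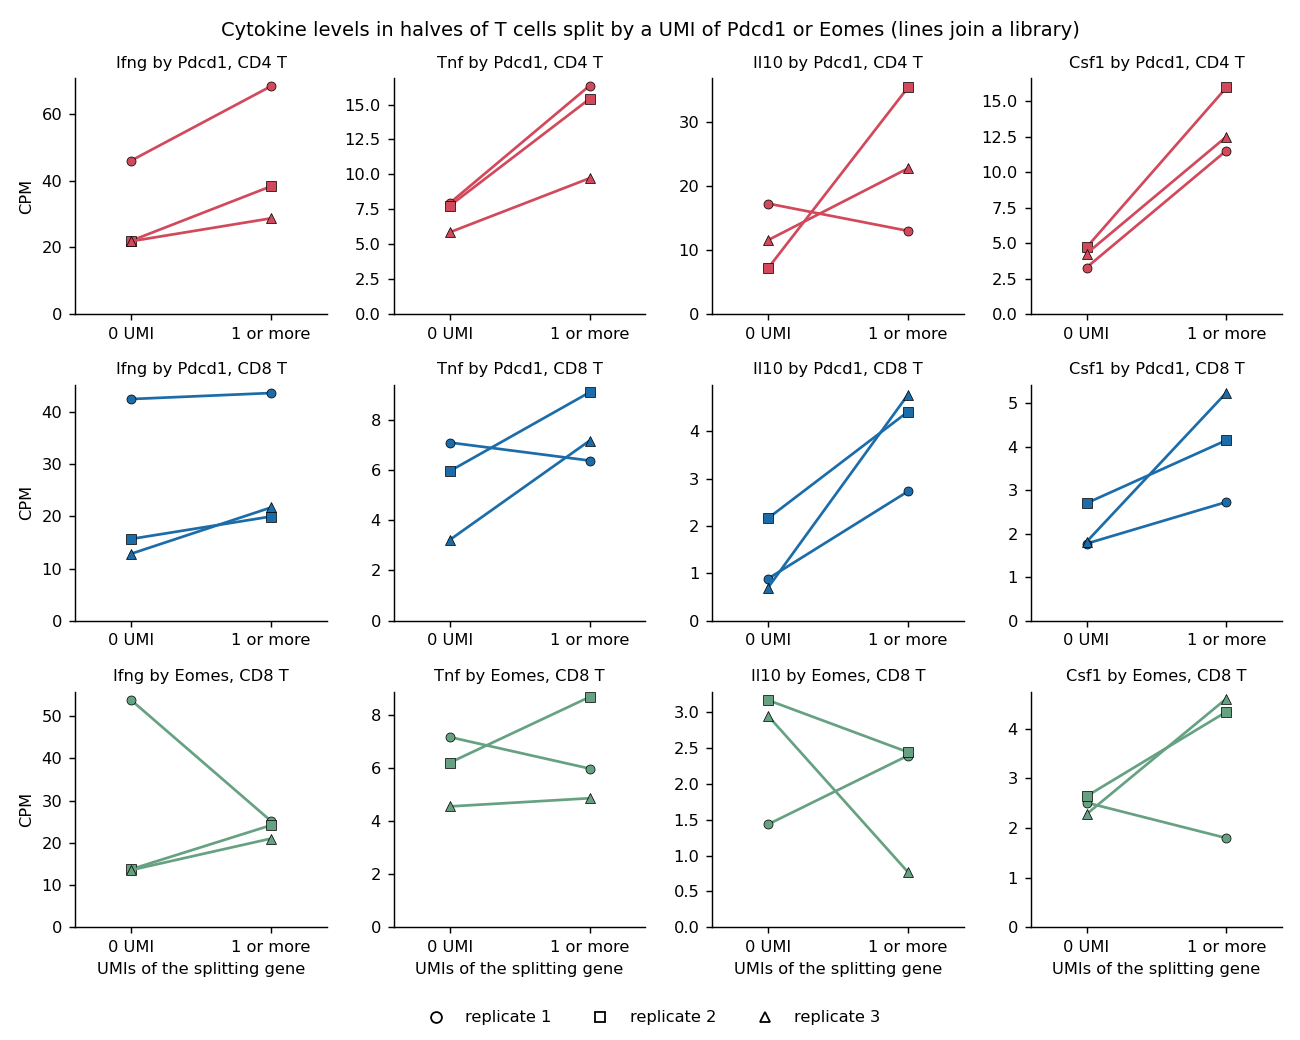
Level of Ifng, Tnf, Il10 and Csf1 (CPM, linear axes that differ between panels) in cells without and with a UMI of Pdcd1 or Eomes. Each line joins the values of 1 library. Csf1 and Tnf rise in all 3 libraries of CD4+ T cells (Csf1 from 3.28, 4.70 and 4.26 to 11.5, 15.99 and 12.5), while Ifng in CD8+ T cells split by Eomes moves down in replicate 1 (53.8 to 25.2) and up in the others.

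Eomes, a T-box factor of effector and memory CD8+ T cells, split the CD8+ class into 987 positive and 2271 negative cells. Ifng lay at 25.2, 24.2 and 21 CPM in the Eomes+ and at 53.8, 13.7 and 13.5 in the Eomes- cells, lower in replicate 1 and higher in replicates 2 and 3. The log2 fold change was 0.07 (SE 0.29, adjusted p = 0.909), and without replicate 1 it was 0.58 (adjusted p = 0.0134). Tnf (0.08, SE 0.25, adjusted p = 0.881) and Csf1 (0.55, SE 0.34, adjusted p = 0.342) did not pass either. In all 0 of 3 tested genes were called by edgeR, 0 at an unadjusted p under 0.05 and 0 by DESeq2, beside 14.2% of 9727 genes (7.3% higher, 6.94% lower). The median of the 3 was 0.08, and that of all genes 0.00.

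Genes outside the 10 were called in these splits too. Of the 14 other T-cell cytokines tested in CD8+ T cells, 9 were higher and 1 lower in Pdcd1+ cells, beside 13.6% of all genes called, led by Ccl3 (log2 fold change 2.94) and Ccl4 (1.93), and in CD4+ T cells 12 of 17 were higher and 1 lower (6 and 5 called without replicate 2 and 3), beside 14.6% of all genes, with Ccl4 (2.30), Ccl3 (1.77) and Ccl5 (1.68). In the Eomes split, beside 14.2% of all genes, 6 of 14 were higher, with Ccl3 (2.43) and Ccl4 (2.12), and 3 lower, with Tnfsf8 (-2.16) and Tnfsf11 (-2.02). Among the receptors called in each split, Ifngr2 had the lowest log2 fold change, at -1.52 in Pdcd1+ CD8+, -1.49 in Pdcd1+ CD4+ and -1.88 in Eomes+ CD8+ T cells. Il10ra was higher in Pdcd1+ (1.23) and Eomes+ (1.47) CD8+ T cells. The regulators Maf (1.06), Prdm1 (1.46) and Ikzf2 (1.53) were higher in Pdcd1+ CD8+ T cells, among 11 higher and 3 lower of 28. The Pdcd1 and Eomes splits of CD8+ T cells use the same cells and are not independent.

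The cytokines were lastly read together in single cells, as a description. Of the 442 Ifng+ CD4+ T cells, 14.0% held Il21, against 1.81% of the 5416 Ifng- cells, and 11.99% held Tnf (against 4.34%), 9.73% Csf1 (3.19%), 8.37% Il10 (4.04%), 4.75% Lta (1.64%) and 3.85% Il2 (2.22%). Ifng+ cells were deeper, with a median of 7007 against 5706.5 UMIs. Thinned to 2000 UMIs, 201 cells held Ifng, of which 18 held Il21 (8.96% against 0.819% of the others), 14 Csf1 (6.97% against 1.35%), 13 Il10 (6.47% against 1.85%) and 10 Tnf (4.98% against 1.19%). Il2 and Lta were each left in 2 of these cells (0.995%, against 0.766% and 0.428% of the others), too few to compare. Read the other way, 38.8% of the 160 Il21+ CD4+ T cells held Ifng, against 6.67% of the rest, and 18 of 64 (28.1%) against 3.18% after thinning. In CD8+ T cells 12.02% of the 233 Ifng+ cells held Tnf, against 2.91% of the others, and 6 of 96 (6.25%) against 0.696% after thinning. Tnf was found in 16.7% of the 42 Il17a+ gamma-delta T cells and 5.15% of the others, and in 3 of 27 (11.1%) and 2.74% after thinning. Il10 was found in 42 of the 210 Csf1+ Treg, against 13.3% of the others, but after thinning in 4 of 64 (6.25%) against 6.87%.

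**Figure D5:**
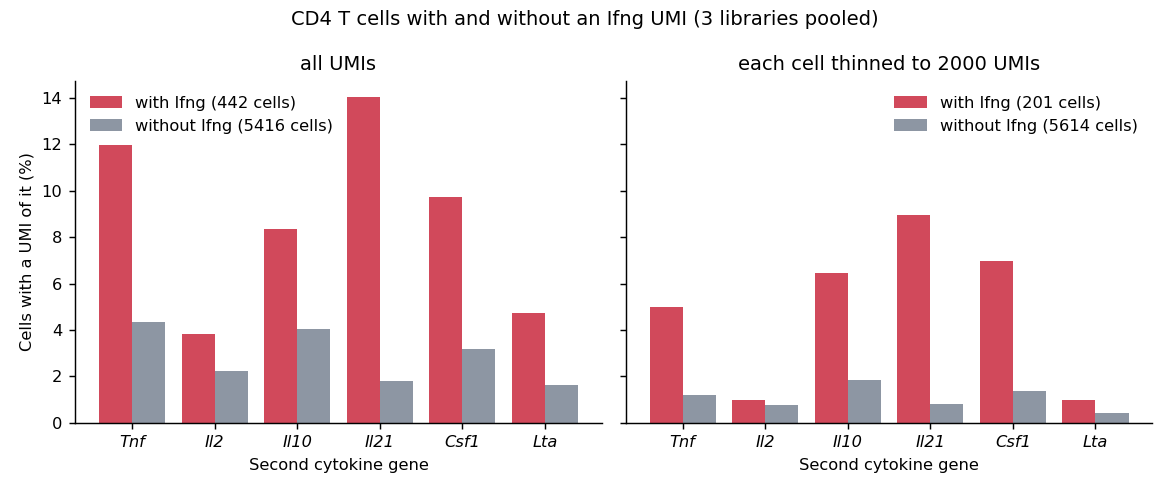
Percentage of CD4+ T cells that held each other cytokine gene among cells with and without a UMI of Ifng, at full depth and after thinning each cell to 2000 UMIs, over the 3 libraries. Il21 shows the widest gap, 14.0% against 1.81% at full depth and 8.96% against 0.819% thinned.

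Pdcd1 and the cytokines were also set side by side per positive cell. Pdcd1 was found in 34.2% of CD4+ T cells, in 53.2% of those with Ifng, 60.2% with Il10, 57.4% with Csf1, 56.9% with Il21, 52.1% with Tnf and 35.04% with Il2. In CD8+ T cells 56.2% of the Ifng+ cells held Pdcd1 (33.8% of the class) and 45.5% held Eomes (30.3% of the class). These shares rise with depth and are not corrected for it. Il2 stood apart from the other 5 genes in CD4+ T cells, with a Pdcd1 share near that of the class.

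Over the 15 class sums, the genes whose log2 levels were most like a member's were Il17re (Pearson r 0.98), Cd163l1 (0.98) and Trdv4 (0.97) for Il17a, where the last is a gamma-delta receptor segment, and Lck (0.95), Frat2 (0.95) and Farp1 (0.95) for Ifng. For Il10 they were Sh3rf1 (0.96), Gm2237 (0.95) and Rragd (0.95), for Csf1 Fam160a1 (0.95), Slc37a2 (0.95) and Whrn (0.94), for Il21 Sostdc1 (0.98), Gucy2g (0.95) and Gm2663 (0.94), and for Csf2 Rbpms2 (0.95), Nr1d1 (0.95) and Dkk3 (0.93). The likeness was lower for Tnf, at up to 0.91 for Coro2b, 0.90 for Trpm6 and 0.90 for Qrfp, for Lta, at 0.88 for Dll1, 0.86 for Scoc and 0.85 for Tcea2, and for Il2, at 0.87 for Pip4k2a, 0.85 for Tmem220 and 0.83 for Kdm5c. The 15 sums share libraries and depth, so these values describe the pattern over classes and carry no test.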

How the data were processed

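CD45+ islet leukocytes of 3 libraries were captured for 3′ single-cell RNA sequencing. The authors deposited the gene by cell counts of UMIs, made per the labels with Cell Ranger 6.0.1 on mm10 (GRCm38), with replicates kept apart. Cells with at least 1000 UMIs and under 10% mitochondrial UMIs were kept here (26142 of 26947), and 16162 fell in at least 1 class by raw UMIs, 67 in more than 1. Doublets were not called; leaving out cells with markers of another class was an alternative. Counts were summed per library and class and fitted with edgeR 4.0.16 (R 4.3.3): filterByExpr, TMM, quasi-likelihood test, library as a block, Benjamini-Hochberg adjusted p under 0.05 over all genes tested. The classes of a library come from the same pooled mice, and their deviations from the class means correlated at 0.187 to 0.747 within a library and -0.643 to 0.423 between libraries. Each class was centred on its mean of the 3 libraries, which by itself lowers the values between libraries. Those values are therefore no separate support for the block. P-values measure the spread left after the library block, not the whole spread between these 3 libraries. In the class comparisons this spread was estimated over all 5 classes. Counts of calls without the block are given below. Depth per library was 33851381, 74775394 and 80806452 UMIs; intervals and floors (95% confidence, 3 counts) cover counting error only.

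On simulated data with 200 genes changed by a log2 fold of 2, the fit found 94% for CD8+ against CD4+ T cells (11680 genes, 11 false calls) and 79% for gamma-delta against CD4+ T cells (11679 genes, 7 false calls). The simulated counts had 1 spread for all genes, no library effect beyond depth and no other class differences. These shares therefore check the fit and do not give its power or false calls for the members. Alternatives were the cell filter that the study states, a depth window, DESeq2 1.42.0 as test or for size factors, no count filter, no block and leaving out each library; capping members at 1 UMI per cell and the test of the Pdcd1 change between CD4+ and CD8+ T cells were chosen after seeing the data. All 10 members were named, with up to 4 called genes of largest change per list and comparison, described receptors and partners of members, and the 3 genes most like each member. Csf2 outside the classes, the type 2 genes Il5 and Il13 and further genes called in several splits were named after their values were seen. The members and lists were chosen with earlier results of these data known. Gene models came from GENCODE M21 and promoters from RefSeq. Scripts ran in Python 3.11.15 (numpy 2.4.6, scipy 1.17.1, pandas 2.3.3).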

Additional observations from a re-analysis of the deposited data

How the results depend on the processing

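The direction and side of the threshold of single genes were unchanged in 510 of 622 refits. Of the rest, 69 lost a call, 25 gained one and 18 changed sign. A refit in which a gene fell below the count filter is not among the 622, so a call that could not be tested again is not counted as lost. With the cell filter of the study, 5 members were tested in each class comparison. Il17a in gamma-delta against CD4+ T cells, Il10 and, where tested, Il21 in CD8+ against CD4+ T cells, and Ifng in CD8+ and CD4+ T cells against B cells kept their calls under every alternative run. Thinning to 2000 or 1000 UMIs moved 71 of 100 shares of cells by more than 1 SD, and 36 of 300 levels moved. With the cell filter of the study 20 levels moved and 30 did not. The depth window gave 12 and 38, and leaving out mixed markers 4 and 46. Without 1 of 3 libraries a mean cannot shift by more than 1 SD of the 3, so none of those levels could count as moved. Il4 passed the count filter in no comparison, and calls rest on 3 libraries. The causes of the changes given here were not tested.

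Of members, 5 were called for CD8+ against CD4+ T cells, and 1 with the cell filter of the study (Il10), 3 with cells of 2000 to 8000 UMIs, 3 without the block and 3 to 4 without 1 library. For Treg (4) the counts were 1 without the block and 2 to 4 without 1 library. For gamma-delta T cells (7) they were 3 with the cell filter of the study, 4 without cells of mixed markers, 4 in the depth window, 4 without the block and 3 to 5 without 1 library, and for CD8+ T against B cells (5) they were 2, 6, 2, 3 and 3 to 6 in the same order. The Pdcd1 split of CD8+ T cells (1) gave 0 with the cell filter of the study, without mixed markers, in the depth window, with the cap, with DESeq2 and without the block, 2 with no count filter and 0 to 1 without 1 library. With the cell filter, without mixed markers, in the depth window and with the cap, 1, 2, 1 and 4 members were tested. Il10 was not among them, as it did not reach the count filter there, so those counts do not test its call again. The Pdcd1 split of CD4+ T cells (3) gave 5 in the depth window, 1 with the cap, 1 with DESeq2, 5 with no count filter, 0 without the block and 1 to 6 without 1 library. The Eomes split (0) gave 1 with no count filter (Il17a, at 0 in Eomes+ cells) and 0 to 1 without 1 library (Ifng, without replicate 1).

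Of all genes, the calls for CD8+ against CD4+ T cells were 1612, and 662 with the cell filter of the study, 495 without the block and 519 to 1999 without 1 library. For Treg they were 919, 1379 with no count filter, 149 without the block and 193 to 1473, for gamma-delta T cells 1754, 945, 1074 and 807 to 1922 (cell filter, no block, without 1 library), and for CD8+ T against B cells 6428, 4016 with the cell filter and 4217 to 6866. The Pdcd1 split of CD8+ T cells gave 1336, 746 with the cell filter, 625 with DESeq2, 1 without the block and 671 to 1885, that of CD4+ T cells 1596, 800, 1 and 511 to 2956 (DESeq2, no block, without 1 library), and the Eomes split 1385, 535, 622, 21 and 710 to 2311 in the order of the CD8+ Pdcd1 split. Without the block the receptors called were 1 for CD8+ (5 with it), 1 for Treg (6) and 0 in both Pdcd1 splits (9 in CD8+, 8 in CD4+) and the Eomes split (8), the other cytokines 1 for Treg (8), 0 in both Pdcd1 splits (10 and 13) and 1 in the Eomes split (9), and the regulators 5 for CD8+ (11), 4 for Treg (10), 10 for gamma-delta T cells (17), 0 in both Pdcd1 splits (14 each) and 1 in the Eomes split (15); with no count filter 18 regulators were called for CD8+ T cells. Eomes is itself on the list of regulators and is at 0 in Eomes- cells by the split. A call of Eomes there was fixed in advance, and the regulator counts of that split were not taken without it. Fits without the library block called fewer members in 7 of the 8 comparisons.

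Signs changed as follows, on the log2 scale. With the cell filter of the study, Il17a in Treg against CD4+ T cells was -1.75, Csf1 in CD8+ T against B cells 0.14, Ifng in the CD8+ Pdcd1 split -0.14 and Ifng in the Eomes split -0.17. In the depth window Il17a in Treg was -1.91. Without mixed markers Tnf in CD4+ T against B cells was -0.10 and in the Eomes split -0.12. With the cap Csf2 in CD4+ T against B cells was 0.51 and Tnf in the Eomes split -0.33. Without the block Ifng in the Eomes split was -0.20. Without 1 library Csf2 ranged from -0.064 to 3.12 in Treg and from -2.49 to 4.05 in CD4+ T against B cells, Lta in Treg from -0.50 to 0.14, Ifng from -0.26 to 0.58 and Tnf from -0.13 to 0.18 in the Eomes split, and the CD4+ minus CD8+ difference of the Pdcd1 change from -1.94 to 0.21 for Il10 and from -0.059 to 1.07 for Lta. Among these, Csf1 in CD8+ T against B cells was called in the main comparison.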
